A study of Mus musculus with 2 samples.

Results

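Apoe, Clu, Abca1, Trem2, Tyrobp, Plcg2, Inpp5d, Spi1, Cd33 and Bin1 are the mouse counterparts of 10 genes named in human genetic studies of Alzheimer's disease or in the lipid and receptor pathways around them. They were picked by gene symbol from the 32285 genes of the count tables, all 10 were found, and all 10 passed the filter on low counts. On the GRCm38 annotation 3 genes share a chromosome: Apoe (chr7:19696109-19699188), Tyrobp (chr7:30413760-30417585) and Cd33 (chr7:43524216-43544428). The others are Clu (chr14:65968483-65981547), Abca1 (chr4:53030787-53159895), Trem2 (chr17:48346401-48354147), Plcg2 (chr8:117498291-117635142), Inpp5d (chr1:87620312-87720507), Spi1 (chr2:91082390-91115756) and Bin1 (chr18:32377230-32435737). Their levels were followed across cell classes of the thalamus of 2 wildtype C57BL/6J mice, untreated and 2 months old, with 1 droplet-based single-cell library per animal. No disease model, age series or treatment was compared: each comparison sets a cell class against another class of the same 2 animals. Classes are called "-like" because they were named from marker genes alone.

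Apoe encodes apolipoprotein E, the main lipid carrier of brain lipoprotein particles. Clu encodes clusterin, a secreted chaperone carried on such particles, and Abca1 encodes the transporter that loads cholesterol and phospholipid onto apolipoproteins. Trem2 is a lipid-sensing receptor of myeloid cells that signals through the adaptor encoded by Tyrobp (DAP12). Plcg2 encodes a phospholipase C downstream of that receptor, whereas Inpp5d encodes the inositol phosphatase SHIP1, which is known to restrain such signalling. Cd33 encodes a sialic acid-binding receptor, and a restraining role is known for its human counterpart. Spi1 encodes PU.1, the transcription factor that sets up the myeloid lineage. Bin1 encodes a membrane-bending protein of the amphiphysin family, with isoforms in neurons, oligodendrocytes and macrophages. In the brain, microglia live in the tissue itself and border macrophages along vessels and meninges, while astrocytes supply most brain lipoprotein.

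The libraries held 163418203 unique molecular identifiers (UMIs) in 7889 barcodes for mouse 1 and 204839993 in 12107 for mouse 2, and 6185 and 9176 cells were kept. The 2 libraries shared 18 barcodes among cells that passed the limits. The microglia-like class had 827 cells in mouse 1 and 511 in mouse 2, the border macrophage-like class 112 and 50, and the astrocyte-like class 1030 and 362. All 12 microglia markers were above 10 counts per 1000000 UMIs of the class (CPM) in microglia-like cells of both mice, and all 9 border macrophage markers were above 10 CPM in the cells named for them. Border macrophage markers summed to 181 and 185 CPM in microglia-like cells, against 13290 and 7799 CPM in border macrophage-like cells. The libraries stood apart in the microglia: a chemokine-low cluster held 741 cells of mouse 1 and 6 of mouse 2, while a Ccl3/Ccl4-high cluster held 86 and 505. Over all microglia-like cells, the summed level of 23 immediate early and stress genes was 7.83 times as high in mouse 2 as in mouse 1. The part of these genes in the results was not tested, and values are therefore given for each mouse.

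RefSeq promoter windows (GRCm38.p6, 250 bases before to 50 after the start, read in the direction of the gene) were held for 6 of the 10 genes. The 4 windows shown belong to genes whose levels were high in the same cells as those of Spi1, so that the core of the PU.1 site can be looked for in them. Capitals mark GAGGAA or its reverse complement TTCCTC, searched on both strands.
Inpp5d, chr1:87620062-87620361, plus strand: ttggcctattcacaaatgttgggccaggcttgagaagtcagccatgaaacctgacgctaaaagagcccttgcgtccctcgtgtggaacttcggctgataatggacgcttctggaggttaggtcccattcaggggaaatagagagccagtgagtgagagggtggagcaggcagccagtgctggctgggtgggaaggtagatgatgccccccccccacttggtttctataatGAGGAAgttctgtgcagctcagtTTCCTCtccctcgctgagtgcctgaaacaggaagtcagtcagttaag
Trem2, chr17:48346151-48346450, plus strand: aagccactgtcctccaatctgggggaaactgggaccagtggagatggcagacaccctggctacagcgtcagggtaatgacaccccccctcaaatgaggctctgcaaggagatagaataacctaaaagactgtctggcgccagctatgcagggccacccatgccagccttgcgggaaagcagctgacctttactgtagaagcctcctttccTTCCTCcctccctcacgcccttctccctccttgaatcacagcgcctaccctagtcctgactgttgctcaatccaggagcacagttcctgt
Cd33, chr7:43533122-43533421, minus strand: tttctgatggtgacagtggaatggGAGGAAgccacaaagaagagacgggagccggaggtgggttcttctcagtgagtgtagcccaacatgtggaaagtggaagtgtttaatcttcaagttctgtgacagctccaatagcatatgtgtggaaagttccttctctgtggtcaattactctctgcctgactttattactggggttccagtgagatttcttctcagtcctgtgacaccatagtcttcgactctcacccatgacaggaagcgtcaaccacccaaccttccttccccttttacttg
Plcg2, chr8:117498025-117498324, plus strand: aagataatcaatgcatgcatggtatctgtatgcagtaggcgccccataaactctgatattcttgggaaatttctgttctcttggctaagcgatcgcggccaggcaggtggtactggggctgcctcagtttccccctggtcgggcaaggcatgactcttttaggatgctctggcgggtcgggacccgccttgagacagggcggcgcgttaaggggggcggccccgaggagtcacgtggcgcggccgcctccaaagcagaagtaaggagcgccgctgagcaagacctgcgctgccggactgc
The Inpp5d window held the core at bases -20 and +3 from the start, and the first of these continued into the longer form GAGGAAGT. The Trem2 window held 1 core at -40 and the Cd33 window 1 at -226, and none was found in the Plcg2 window. Of 32851 promoter windows of this length, 28.3% held the core and 3.20% the longer form. The core was also in 2 of the 3 Apoe windows and not in the Abca1 window, which held TATAAA at -29, a word found in 13.6% of windows. The E-box CACGTG was in the Abca1 window at -147 and in the Plcg2 window at -20, and in 7.15% of all windows. A match describes the letters only.

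Apoe was highest in border macrophage-like cells, at 29315 CPM in mouse 1 and 24379 CPM in mouse 2, a mean of 26847 ± 3491 (SD, n = 2 mice). Astrocyte-like cells had 4606 and 5744 CPM, ependymal-like cells 5985 and 3305 CPM, and vascular leptomeningeal fibroblast-like cells 3304 and 2757 CPM. The border macrophage values lay above all others in both mice, whereas the astrocyte and ependymal values overlapped. Oligodendrocyte precursor-like cells (1181 and 1256 CPM), oligodendrocyte-like cells (999.9 and 818 CPM) and endothelial-like cells (600.1 and 554 CPM) followed, with no overlap between neighbours. Microglia-like cells had 357 and 175 CPM and overlapped pericyte-like cells (203 and 416 CPM). The 4 neuron classes lay at 68.5 to 102 CPM in mouse 1 and 22.8 to 28.6 CPM in mouse 2. The neuron classes thus had the lowest mean levels of Apoe.

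Level and cell number gave different pictures of the Apoe pool. Border macrophage-like cells were 1.81% and 0.545% of kept cells and held 26.4% and 10.7% of the Apoe UMIs. Astrocyte-like cells held 34.7% and 20.002%, and oligodendrocyte-like cells 27.4% and 41.2%. Oligodendrocyte precursor-like cells held 1.28% and 18.6%, and were 2.33% and 10.5% of kept cells. These shares depend on how many cells of each class were recovered in each mouse. Microglia-like cells held 1.94% and 0.855%.

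Clu was highest in ependymal-like cells, the ciliated lining of the ventricles, at 2924 and 3195 CPM, from 4 cells of mouse 1 and 29 of mouse 2. Astrocyte-like cells came next with 833 and 884 CPM, a mean of 858 ± 35.9 (SD, n = 2), and did not overlap either neighbour in the order. Oligodendrocyte precursor-like cells had 119 and 103 CPM, and the unresolved neuron-like class 75.03 and 98.5 CPM. Microglia-like cells had 7.51 and 4.79 CPM and border macrophage-like cells 11.3 and 2.23 CPM, so the 2 macrophage classes were among the lowest for this gene. With cells thinned to 2000 UMIs, a Clu UMI was seen in 73.4% and 71.6% of astrocyte-like cells, and in 1.21% and 0.392% of microglia-like cells. Median depths were 14472 and 8952 UMIs in astrocyte-like cells, and 12974 and 9480 UMIs in microglia-like cells.

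The transporter gene Abca1 was spread over more classes. Border macrophage-like cells had 721 and 535 CPM, microglia-like cells 389 and 327 CPM, and astrocyte-like cells 256 and 301 CPM, with no overlap between neighbours. Vascular leptomeningeal fibroblast-like cells had 194 and 188 CPM and oligodendrocyte precursor-like cells 129 and 150.4 CPM. Neuron classes had 6.20 to 11.8 CPM in mouse 1 and 7.02 to 9.89 CPM in mouse 2. Abca1 was thus measured in all 16 named classes, and was highest in the 2 macrophage classes.

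**Figure D1:**
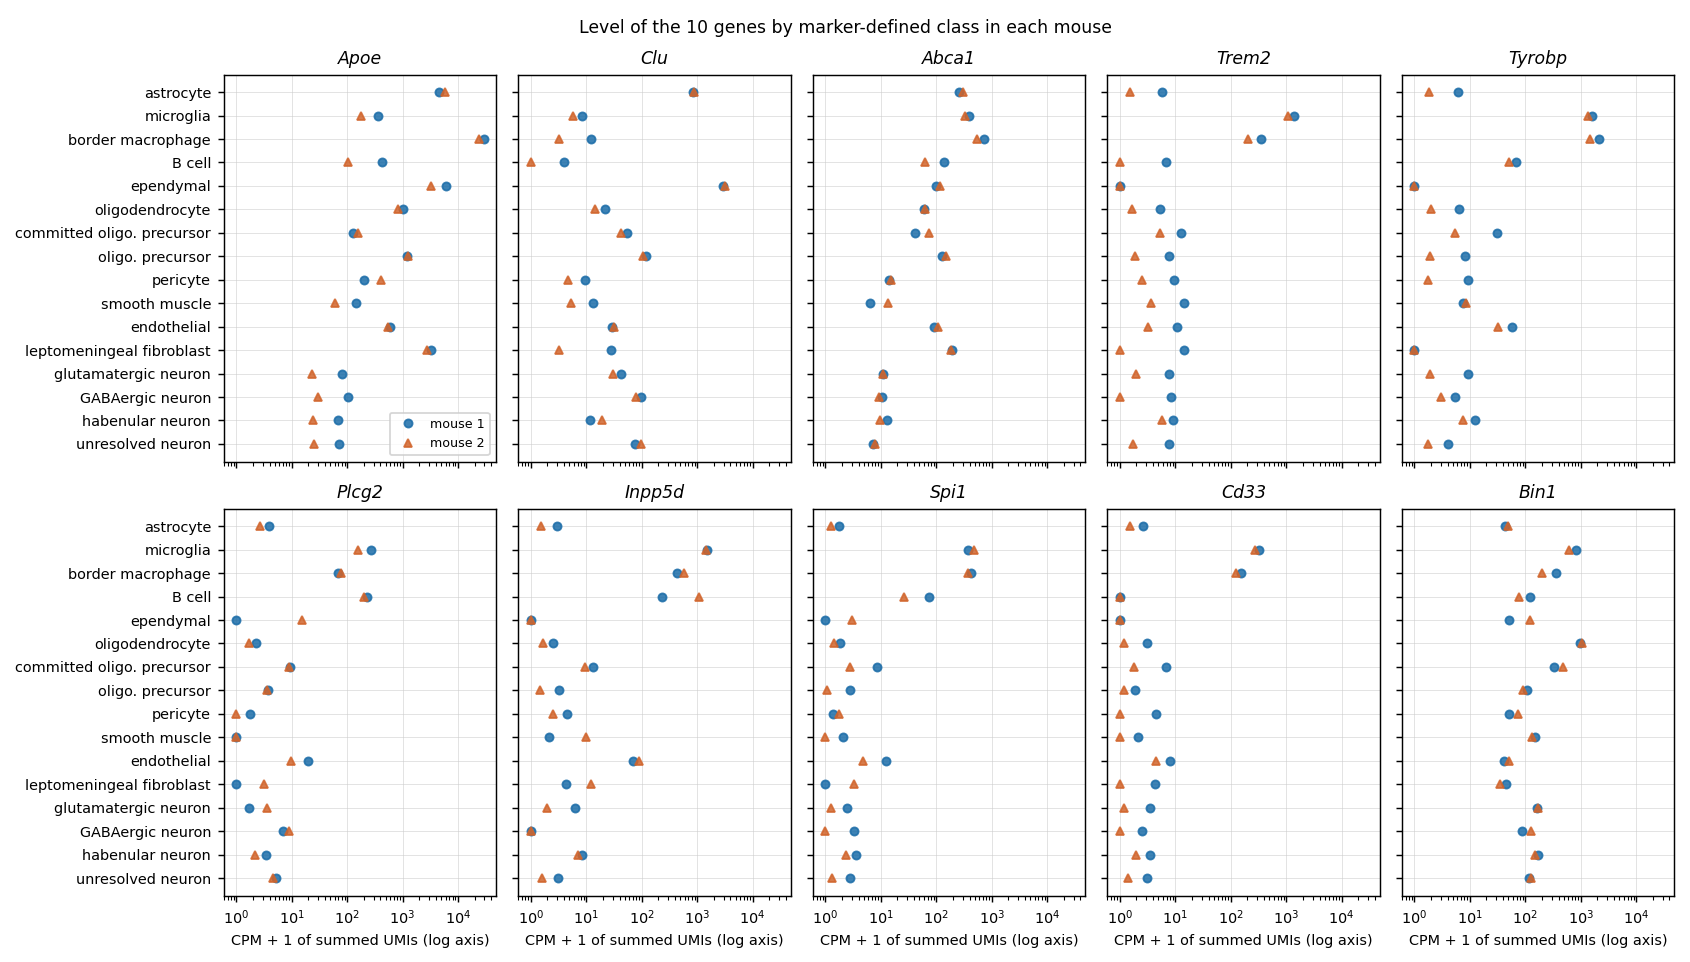
CPM plus 1 (log axis) of each gene in every named class, 1 point per mouse (circle mouse 1, triangle mouse 2). Trem2, Tyrobp, Spi1 and Cd33 are higher in both macrophage classes than in any other class, and Inpp5d overlaps between border macrophage-like and B cell-like cells. Apoe is highest in border macrophage-like cells and Clu in ependymal-like and astrocyte-like cells.

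Trem2 had the highest share of its UMIs in microglia-like cells of the 10 genes, in both mice. Microglia-like cells had 1391 and 1077 CPM, border macrophage-like cells 345 and 205 CPM, and no other class more than 13.6 CPM. Of all Trem2 UMIs, 89.2% and 93.8% lay in microglia-like cells. Thinned to 2000 UMIs, 91.8% (757 of 825) and 84.7% (432 of 510) of microglia-like cells had a Trem2 UMI, against 41.3% and 34.8% of border macrophage-like cells. In oligodendrocyte-like cells, which should lack the gene, the share was 1.17% and 0.0911% at median depths of 25249 and 14503 UMIs.

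Tyrobp did not share that order. Border macrophage-like cells had 2103 and 1488 CPM and microglia-like cells 1632 and 1336 CPM, so the mice overlapped between the 2 classes. Thinned to 2000 UMIs, 92.5% and 92.0% of microglia-like cells and 95.4% and 97.8% of border macrophage-like cells had a Tyrobp UMI, against 1.17% and 0.273% of oligodendrocyte-like cells. Both a Trem2 and a Tyrobp UMI were seen in 706 of 825 and 401 of 510 microglia-like cells, where independent detection gives 700 and 397. For Tyrobp in microglia-like cells there were 31.8 and 33.5 UMIs per 100 of the complement gene C1qa, and in oligodendrocyte-like cells 37.3 and 44.3 at 14.3 and 2.37 CPM of C1qa.

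Cd33 had 324 and 274 CPM in microglia-like cells, 150.0 and 123 CPM in border macrophage-like cells, and 7.07 CPM or less elsewhere. A Cd33 UMI was seen in 46.9% and 42.7% of thinned microglia-like cells, in 29.4% and 19.6% of border macrophage-like cells, and in 0.560% and 0.0304% of oligodendrocyte-like cells. B cell-like and ependymal-like cells had no Cd33 UMI in either mouse, at 3-count limits of 6.22 to 37.8 CPM.

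Inpp5d was the steadiest between the mice in microglia-like cells, at 1534 and 1475 CPM, a mean of 1505 ± 41.7 (SD, n = 2). Border macrophage-like cells had 427 and 578 CPM and endothelial-like cells 67.7 and 90.3 CPM. B cell-like cells, from 16 and 17 cells, had 232 and 1097 CPM and overlapped the border macrophage values. The B cell-like sums also held vascular RNA, mostly in mouse 1: endothelial markers summed to 10790 and 1173 CPM and pericyte markers to 4745 and 37.8 CPM, beside 2767 and 2636 CPM of B cell markers. The part of this RNA in the B cell-like levels of Inpp5d, Plcg2 and Spi1 was not tested. Thinned to 2000 UMIs, 94.7% and 93.1% of microglia-like cells had an Inpp5d UMI, against 52.3% and 56.5% of border macrophage-like cells and 0.560% and 0.121% of oligodendrocyte-like cells.

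Plcg2 had 266 and 157 CPM in microglia-like cells and 226 and 202 CPM in B cell-like cells, where the enzyme is known to act below the antigen receptor. These 2 classes overlapped, and border macrophage-like cells lay below both with 66.7 and 75.8 CPM. Spi1 had 375 and 485 CPM in microglia-like cells and 416 and 370.3 CPM in border macrophage-like cells, which overlapped. B cell-like cells followed with 73.4 and 25.2 CPM of Spi1. Astrocyte-like cells had 0.771 and 0.280 CPM, the lowest mean of the 2 mice, although other classes were lower in either mouse alone.

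Bin1 was highest in oligodendrocyte-like cells. Oligodendrocyte-like cells had 968 and 1048 CPM, microglia-like cells 824 and 622 CPM, committed oligodendrocyte precursor-like cells 333 and 483 CPM and border macrophage-like cells 354 and 196 CPM. Glutamatergic neuron-like cells had 161 and 169 CPM, and astrocyte-like cells 41.9 and 49.1 CPM. Of the Bin1 UMIs, 74.4% and 69.3% lay in oligodendrocyte-like cells and 12.5% and 3.999% in microglia-like cells. Bin1 overlaps the antisense transcript A830052D11Rik, which the tables also count, and no label or file header says whether reads were counted by strand.

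**Figure D2:**
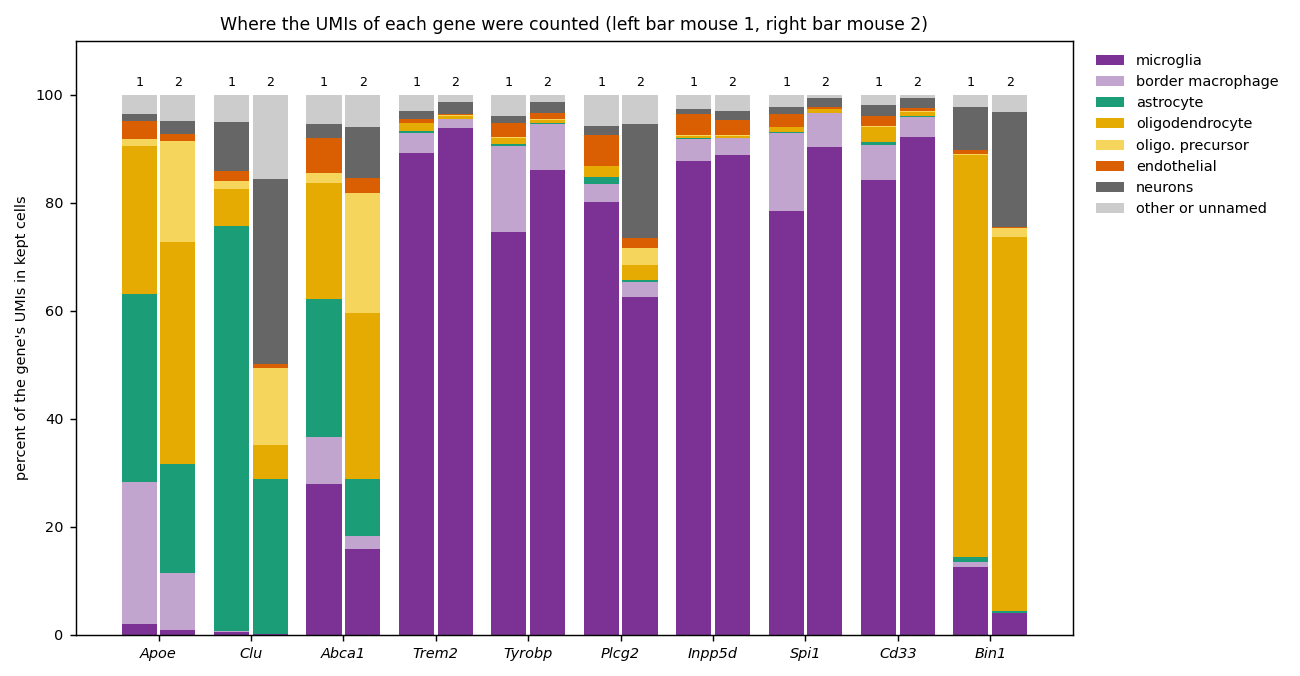
Percent of each gene's UMIs in kept cells that fell in each class group, stacked to 100, with mouse 1 on the left and mouse 2 on the right of each pair. Trem2, Tyrobp, Inpp5d, Spi1 and Cd33 lie mostly in microglia-like cells (74.5% to 93.8%), Bin1 in oligodendrocyte-like cells, and Apoe and Abca1 are spread over several classes. Clu lies mostly in astrocyte-like cells in mouse 1 (75.2%) and over several classes in mouse 2 (28.5% in astrocyte-like cells).

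Within a class, Apoe varied between clusters that both mice shared. Astrocyte-like cluster 6 had 7689 and 6522 CPM of Apoe and 1212 and 984 CPM of Clu, while astrocyte-like cluster 10 had 2367 and 2288 CPM of Apoe and 558 and 438 CPM of Clu. Abca1 did not follow them, at 232 and 289 CPM in cluster 6 and 273 and 351 CPM in cluster 10. Among oligodendrocyte-like clusters, Apoe was 1363 and 1378 CPM in cluster 0 but 259 and 177 CPM in cluster 8, which was led by Apod, Anln, S100b and Klk6. Bin1 spanned 634 to 1256 CPM over the oligodendrocyte-like clusters, lowest in cluster 8. The 10 genes were held out of the genes used for clustering, and these values are a description with no test.

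**Figure D3:**
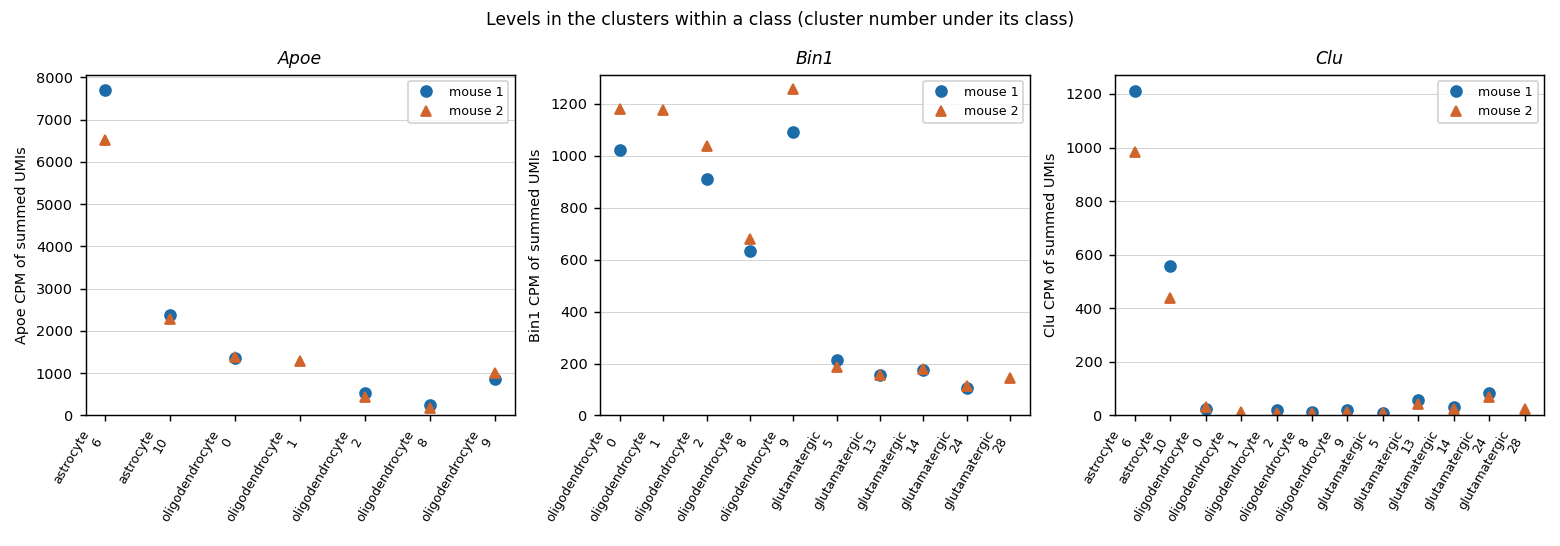
CPM of Apoe, Bin1 and Clu (vertical axes from 0) by cluster, with a circle for mouse 1 and a triangle for mouse 2. Apoe is drawn for astrocyte-like and oligodendrocyte-like clusters, and Bin1 for oligodendrocyte-like and glutamatergic neuron-like clusters. Clu is drawn for the clusters of each of these classes. Apoe differs between astrocyte-like clusters 6 (7689 and 6522 CPM) and 10 (2367 and 2288 CPM) in both mice.

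Microglia-like cells were next set against border macrophage-like cells, to see which of these genes separate the 2 resident macrophage classes. Apoe was lower in microglia-like cells by 6.61 ± 0.64 on the log2 scale (log2 fold change -6.61, SE 0.64, edgeR adjusted p = 6.63e-07), with -6.32 in mouse 1 and -6.92 in mouse 2. Trem2 (log2 fold change 2.51, SE 0.54, edgeR adjusted p = 0.00312), Plcg2 (1.69, SE 0.45, adjusted p = 0.0163), Inpp5d (1.70, SE 0.55, adjusted p = 0.0455) and Bin1 (1.49, SE 0.25, adjusted p = 0.000262) were higher. Thus 4 of 10 genes were called higher and 1 lower at an adjusted p below 0.05 and a change of at least 2-fold, where 6.40% of the 17180 tested genes were called higher and 6.10% lower (12.5% in either direction). Abca1 had a log2 fold change of -0.71 (edgeR adjusted p = 0.0497), under 2-fold. Cd33 had a log2 fold change of 1.47 (edgeR adjusted p = 0.105) with groups that did not overlap, and Tyrobp (-0.05), Spi1 (0.40) and Clu (-0.35) were not called. The Trem2 and Inpp5d calls were lost without the mouse term (edgeR adjusted p = 0.215 and 0.118), and that of Inpp5d also under 5 other settings (edgeR or DESeq2 adjusted p of 0.0522 to 0.144).

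Related genes moved in both directions in the same comparison, where the median over all tested genes was 0.11. Of 24 genes of Trem2 and Tyrobp signalling, 7 were called higher in microglia-like cells and 3 lower, with a list median of 0.77. Itgam, the CD11b integrin chain, had 568 and 628 CPM in microglia-like cells, against 112 and 138 CPM in border macrophage-like cells (log2 fold change 2.54). Vav3, a guanine nucleotide exchange factor, had 9.92 and 22.3 CPM in microglia-like cells, against 531 and 709 CPM in border macrophage-like cells (-5.20). Ms4a4a had no UMI in microglia-like cells of either mouse, against 161 and 196 CPM in border macrophage-like cells. Of 38 other orthologs of Alzheimer risk genes, 8 were called higher and 5 lower (median 0.39): Abi3 (4.02) and Rhoh (2.40) were higher in microglia-like cells, and Ms4a6b (-2.62) was lower.

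Of 19 genes of apolipoproteins and lipid efflux, 2 were called higher and 4 lower in microglia-like cells (median -0.63). Pltp, the phospholipid transfer protein, had 12.1 and 11.2 CPM in microglia-like cells, against 334 and 431 CPM in border macrophage-like cells (-4.97). Mylip, a ligase that targets lipoprotein receptors for breakdown, and the receptor gene Lrp1 were higher (2.17 and 1.81). Of 22 genes known from disease-associated microglia, 4 were called higher and 11 lower (median -1.19), so most of those called were on the border macrophage side. Among them Lyz2 had 115 and 116 CPM in microglia-like cells, against 5656 and 5037 CPM in border macrophage-like cells, and Igf1 1.25 and 2.39 CPM, against 375 and 228 CPM. Of 14 homeostatic microglia genes, some of which also served as class markers, 12 were called higher and none lower (median 4.07), led by Tmem119 (6.71), Sparc (6.40) and Olfml3 (6.01). Of 14 myeloid transcription factors, 6 were called higher, among them Mef2a (2.08) and Ikzf1 (1.86), and 3 lower. Of the Bin1 relatives, Bin2 was higher (2.81) and Itsn1, an endocytic scaffold, lower (-4.99). The largest edgeR adjusted p among the genes named from these lists was 0.0398, for Ikzf1. Of 23 immediate early and stress genes, 2 were called higher in microglia-like cells and none lower, but the list median was 1.14, against 0.11 over all tested genes. Oligodendrocyte markers, genes of the class with the most Bin1, summed to 1015 and 1766 CPM in microglia-like cells, against 2818 and 718 CPM in border macrophage-like cells. The part of these genes in the calls was not tested.

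**Figure D4:**
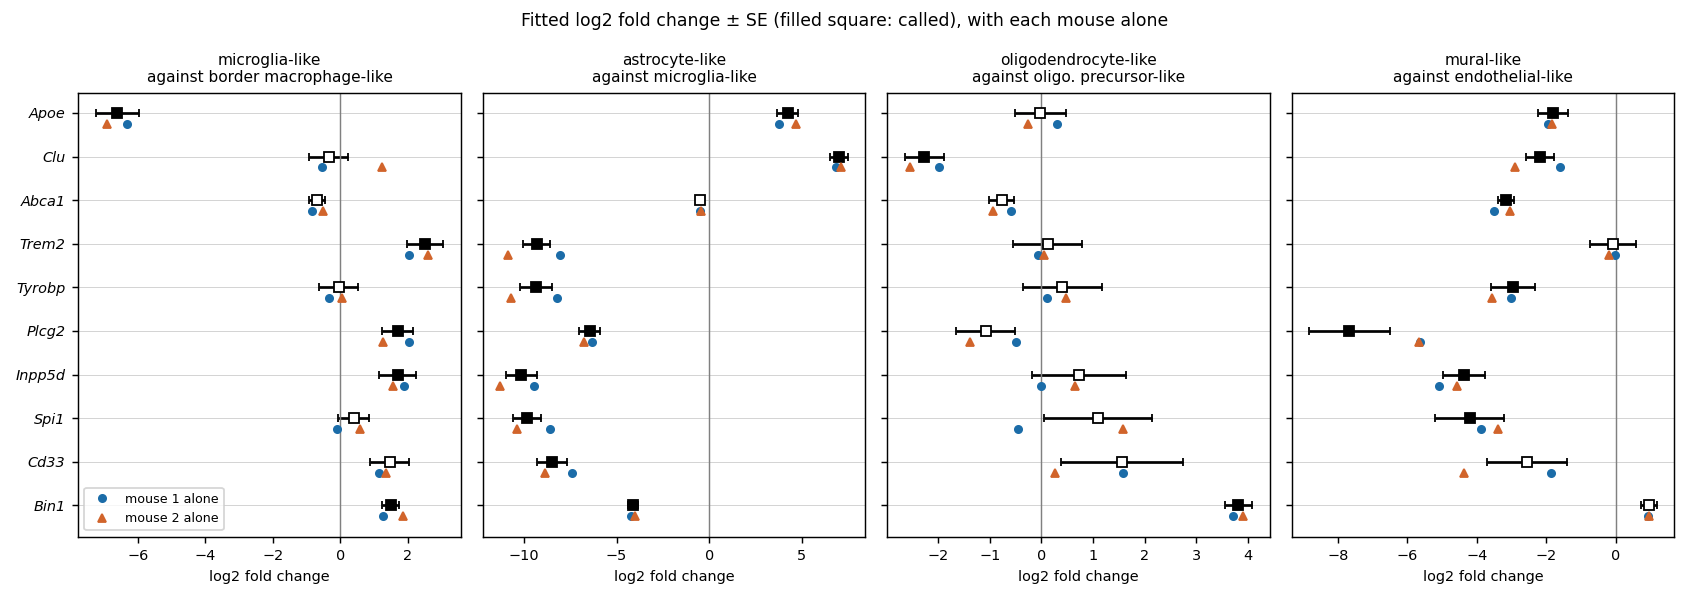
Fitted log2 fold changes ± SE of the 10 genes in 4 comparisons of classes, 1 panel each (horizontal axis), with the value of each mouse alone beside them; filled squares are called. In the panel of microglia-like against border macrophage-like cells Apoe lies at -6.61 and Trem2 at 2.51.

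The microglia-like cells themselves differed in the chemokines Ccl3 and Ccl4, attractants of leukocytes. The Ccl3/Ccl4-high cluster had 6072 and 3991 CPM of both genes summed, against 244 CPM in the chemokine-low cluster of mouse 1. Because mouse 2 had only 6 chemokine-low cells, the clusters could not be compared over the mice. Instead, the microglia-like cells of each mouse with the most Ccl3 and Ccl4 (275 in mouse 1 and 170 in mouse 2) were compared with as many cells with the least. In mouse 1 the 275 chemokine-poor cells had no UMI of either gene, as did 275 of the 277 cells between the groups, so the order of the cells in the table, and not a value, set which of them were compared. None of the 10 genes was called, and none of the 17204 tested genes was (0% called by edgeR). An unadjusted edgeR p below 0.05 was found for 337, a smaller share than the 0.05 that tests without any difference would give. DESeq2 called 1 gene, with 331 below 0.05. Even Ccl3, which defined these groups, was not called at a log2 fold change of 5.05. The absence of calls therefore says little about the 10 genes. The groups stood at different levels in the 2 mice: the chemokine-rich cells of mouse 1 had a median of 3.07 UMIs of both genes per 10000, and the chemokine-poor cells of mouse 2 had 5.74.

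Apoe had the largest fitted difference of the 10, with 509 and 146 CPM in the chemokine-rich cells, against 262 and 109 CPM in the chemokine-poor cells (log2 fold change 0.84, SE 0.53). The other 9 genes had fitted values between -0.15 (Bin1) and 0.43 (Clu), within 1 SE of 0. In mouse 1 alone, the counts of the Ccl3/Ccl4-high over the chemokine-low cluster gave a ratio of 4.22 for Apoe (95% interval 3.95 to 4.501), 0.522 for Plcg2 (0.448 to 0.605) and 0.685 for both Abca1 and Cd33. Trem2 and Inpp5d had ratios of 0.946 and 0.952. These intervals cover counting error in 1 library only, and the same ratio was 11.9 for the immediate early and stress list. The Apoe level of mouse 1's high cluster was not met in mouse 2, whose high cluster had 176 CPM, 0.161 times that of mouse 1 (1096 CPM).

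A few cells carried 63.5% and 49.0% of the Apoe UMIs of the microglia-like class. With a threshold of 10 Apoe UMIs per 10000, chosen after the values were seen, 26 of 827 microglia-like cells in mouse 1 (3.14%, exact 95% interval 2.06 to 4.57) and 10 of 511 in mouse 2 (1.96%, 0.942 to 3.57) lay at or above it. Without them the class had 136 and 91.1 CPM. The median microglia-like cell had 1.00 Apoe UMI per 10000 in mouse 1 and 0 in mouse 2. Just below the threshold, at 5 to 10 per 10000, lay 32 and 15 cells, and just above it, at 10 to 20, lay 10 and 5. In mouse 1, 7 of the 86 cells of the Ccl3/Ccl4-high cluster were at or above the threshold and held 85.5% of its Apoe UMIs, so that without them the cluster had 178 CPM, against 130.4 CPM for the chemokine-low cluster without its own 19.

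The Apoe-rich cells kept the microglia markers, which summed to 29982 and 25113 CPM in them, against 32243 and 25557 CPM in the other microglia-like cells. The median depth of the Apoe-rich cells was 17199.5 and 10497.5 UMIs, against 12952 and 9460 UMIs below the threshold. Border macrophage markers summed to 222 and 251 CPM in the Apoe-rich cells, against 179 and 183 CPM. Oligodendrocyte markers summed to 2589 and 1804 CPM in them, against 950.4 and 1765 CPM, so they were higher in mouse 1. Astrocyte markers summed to 258 and 688 CPM in them, against 338 and 423 CPM, so they were higher in mouse 2, where Clu had 46.5 CPM (5 UMIs), against 3.87 CPM. Listed chemokines and cytokines summed to 3007 and 9521 CPM in them, against 1343 and 6376 CPM. Immediate early and stress genes summed to 7423 and 38084 CPM, against 4310 and 34650 CPM. The part of depth, these markers and these genes in the values of the Apoe-rich cells was not tested. The disease-associated list summed to 17174 and 17285 CPM, against 11619 and 10917 CPM, and the homeostatic list to 20197 and 16810.5 CPM, against 26699 and 20589 CPM. In both mice the Apoe-rich cells had more of Lyz2 (475 and 279 CPM, against 100.2 and 112), Cd63 (611 and 344 CPM, against 205 and 136) and the ferritin gene Fth1 (4465 and 5542 CPM, against 2207 and 2582). The purinergic receptor gene P2ry12 had 1442 and 1116 CPM in them, against 2499 and 1603 CPM. Spp1 had 38 UMIs in the 26 cells of mouse 1, 86.0 CPM against 1.49, and none in the 10 cells of mouse 2. Trem2 had 1480.0 and 1264 CPM in them, against 1387 and 1073 CPM, and Tyrobp 2478 and 1729 CPM, against 1597 and 1327 CPM. The cells were picked on their Apoe count and the other genes named for them were chosen after their values were seen, so no test was made.

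**Figure D5:**
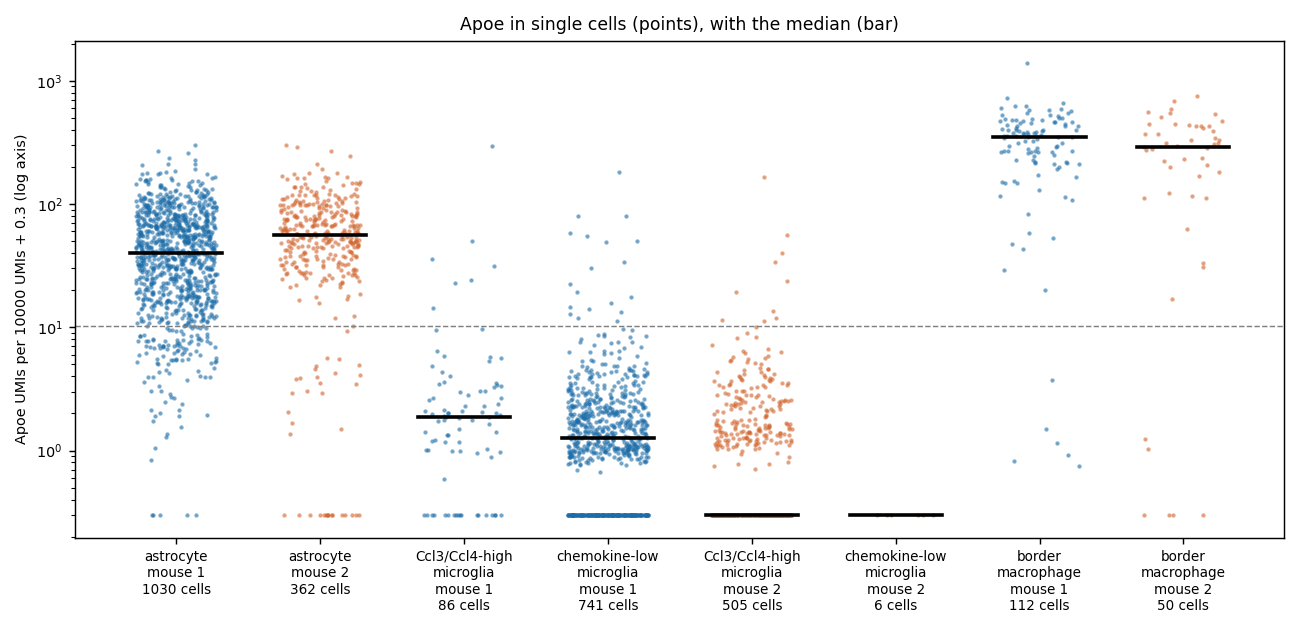
Apoe UMIs per 10000 plus 0.3 (log axis) in single cells of the astrocyte-like, microglia-like and border macrophage-like classes of each mouse, with bars at the medians and a dashed line at 10 per 10000. A thin tail of microglia-like cells (26 and 10) lies above the line, and border macrophage-like cells centre on 349 and 291.

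Single border macrophage-like cells had a median of 349 Apoe UMIs per 10000 in mouse 1 and 291 in mouse 2, with 60.7 and 0.927 at the 10th percentile. At the 90th percentile these cells had 544 and 541. Single astrocyte-like cells had medians of 39.6 and 55.5. The border macrophage-like class thus held some cells with little Apoe, more so in mouse 2.

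Against the mean log level of the non-macrophage classes, 8 of the 10 genes were called higher in microglia-like cells and 1 lower, where 20.2% of all tested genes were called higher and 18.6% lower (38.7% in either direction). The largest was Tyrobp (log2 fold change 9.30, SE 0.34), followed by Spi1 (9.06), Inpp5d (8.80), Trem2 (8.73), Cd33 (8.36) and Plcg2 (7.28). Abca1 (3.41) and Bin1 (2.74) were higher by less, Clu was lower (-2.29, but -1.10 and not called with doublets kept, edgeR adjusted p = 0.0542), and Apoe was not called (-0.19, edgeR adjusted p = 0.786). Of 24 genes of Trem2 and Tyrobp signalling 21 were called higher, led by Pik3cg (10.09), Vav1 (9.24) and Itgam (8.96), and 2 lower, Fyn (-1.72) and Vav3 (-2.12). Of 38 other risk gene orthologs 20 were called higher and 4 lower, with Rhoh, Blnk and Abi3 at 9.47, 9.13 and 8.27. The 20 of 23 immediate early and stress genes called higher in the same comparison include Atf3 (158 and 2567 CPM in microglia-like cells), and their part in the result was not tested.

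Astrocyte-like cells were set against microglia-like cells, since astrocytes are known as the main source of brain lipid carriers. Apoe was higher in astrocyte-like cells, at 4606 and 5744 CPM against 357 and 175 CPM (log2 fold change 4.25, SE 0.57, edgeR adjusted p = 4.01e-06). Clu was higher by 7.01 (SE 0.49, edgeR adjusted p = 1.1e-09), at 833 and 884 CPM against 7.51 and 4.79 CPM. Abca1 was not called, with a log2 fold change of -0.50 (SE 0.23, edgeR adjusted p = 0.0835) and groups that did not overlap. The other 7 genes were lower, between -4.12 for Bin1 and -10.15 for Inpp5d. The 2 genes called higher and 7 called lower stand beside 23.0% and 20.9% of all tested genes (43.9% in either direction).

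Among 19 lipid genes, 7 were called higher in astrocyte-like cells and 4 lower. Lcat, which esterifies lipoprotein cholesterol, had 138 and 128 CPM in astrocyte-like cells, against 0.804 and 0.997 CPM in microglia-like cells, and the Apoe receptor gene Lrp8 had 78.0 and 71.8 CPM, against 1.88 and 2.19 CPM. Plcb1, a phospholipase C relative of Plcg2, had 3439 and 2444 CPM in astrocyte-like cells, against 8.13 and 8.97 CPM in microglia-like cells, the reverse of Plcg2 itself. In the same comparison 22 of 23 immediate early and stress genes were lower.

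Against the mean log level of the other non-macrophage classes, astrocyte-like cells were higher in Apoe (log2 fold change 4.47, SE 0.26), Clu (5.19, SE 0.20) and Abca1 (3.21, SE 0.14) and lower in Bin1 (-1.51, SE 0.21). That is 3 genes called higher and 1 lower, beside 18.8% and 14.4% of all tested genes (33.2% in either direction). The 6 other genes were at 5.08 CPM or less in astrocyte-like cells and were not called. Inpp5d passed under 3 settings (edgeR or DESeq2 adjusted p of 0.0280 to 0.0489). Sorl1, a sorting receptor, had 240.1 and 223 CPM in astrocyte-like cells (3.25), while App, which encodes the amyloid precursor protein, was lower with 62.3 and 104 CPM (-3.41).

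Oligodendrocyte-like cells were set against their precursors. Bin1 was higher in oligodendrocyte-like cells, at 968 and 1048 CPM against 106.3 and 89.6 CPM (log2 fold change 3.82, SE 0.27, edgeR adjusted p = 1.22e-09), with the committed precursors between them at 333 and 483 CPM. Clu was lower, at 20.7 and 13.7 CPM against 119 and 103 CPM (-2.27, SE 0.38, edgeR adjusted p = 6.94e-05). These were the only calls, 1 higher and 1 lower, beside 15.3% and 21.8% of all tested genes (37.1% in either direction). Abca1 (-0.77, edgeR adjusted p = 0.0109) was under 2-fold, and was called under the size factors of DESeq2 (-1.02), a scaling that moved all genes by -0.23 in this comparison. Apoe was not called (-0.02, SE 0.50), although committed precursors had 128 and 158 CPM, below both oligodendrocyte-like cells (999.9 and 818 CPM) and precursor-like cells (1181 and 1256 CPM). Apod, a lipocalin, was higher in oligodendrocyte-like cells (2392 and 2003 CPM, against 44.2 and 15.6 CPM), and Lrp1 was lower (5.04 and 3.76 CPM, against 504 and 577 CPM).

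In vessels, mural-like cells (pericyte-like and smooth muscle-like) were set against endothelial-like cells. Mural-like CPM are the mean of the CPM of both classes. The classes were unlike for Apoe in mouse 2, with 553 of 1328066 UMIs in pericyte-like cells and 108 of 1822978 in smooth muscle-like cells. Apoe had 173 and 238 CPM in mural-like cells, against 600.1 and 554 CPM in endothelial-like cells (log2 fold change -1.80, SE 0.42, edgeR adjusted p = 0.00263), a call lost at a mitochondrial limit of 5% (-1.11, adjusted p = 0.158) and with doublets kept (-0.93, adjusted p = 0.0984). Abca1 had 9.38 and 13.5 CPM in mural-like cells, against 89.0 and 109 CPM (-3.17). Inpp5d had 2.36 and 5.14 CPM in mural-like cells, against 67.7 and 90.3 CPM (-4.38). In all, 7 genes were called lower in mural-like cells and none higher by edgeR, beside 13.2% and 10.1% of all tested genes (23.3% in either direction). Of these, Plcg2 and Spi1 rested on 2 and 3 UMIs in mural-like cells (ratio of summed counts 0.0183, 95% interval 0.00221 to 0.0669, and 0.0459, 0.00935 to 0.137). Bin1, the only 1 of the 10 with a fitted value above 0, was higher by less than 2-fold (0.96, edgeR adjusted p = 0.00264) and was called with DESeq2 (1.05). With doublets kept, 3 genes were called lower (Abca1, Plcg2 and Inpp5d) and Bin1 higher.

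An endothelial-like cluster led by S100a8 and S100a9 (102 and 59 cells) had 3718 and 1227 CPM of neutrophil markers, against 1.57 and 0.893 CPM in the main endothelial-like cluster. S100a8 and S100a9 are themselves among these 5 markers, of which 2 in mouse 1 and 3 in mouse 2 had no UMI in that cluster. The same cluster also had 234 and 215 CPM of Tyrobp, against 8.18 and 1.79 CPM, and 98.5 and 193 CPM of Clu, against 9.08 and 4.46 CPM. Without that cluster, an alternative chosen after seeing the data, Clu (-0.22), Tyrobp (0.21) and Spi1 (-1.21) were no longer called lower in mural-like cells, and Bin1 was called higher (1.14). Then 4 genes were called lower and 1 higher, beside 22.5% of all tested genes called in either direction and 10.4% called higher. Inpp5d had 53.8 and 84.4 CPM in the main endothelial-like cluster and stayed among the 4 with Apoe, Abca1 and Plcg2.

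The genes whose levels ran most like those of each of the 10 were sought over the 26 sums of 13 classes by Pearson's r of log2(CPM + 1), as a description over classes that share 2 libraries. Trem2 ran closest to Itgam (0.98) and Fcrls (0.98), Spi1 to Pik3cg (0.99) and Cd84 (0.98), and Cd33 to Cd300c2 and Fcgr3 (0.98 each). Tyrobp ran closest to Itgb2 and Cd53 (0.97 each), Inpp5d to Samsn1 and Arhgap25 (0.97 each), and Plcg2 to Samsn1 (0.95) and Cd84 (0.94). Clu ran closest to the astrocyte gene Aldoc (0.91) and to Nkain4 (0.90). Abca1 ran closest to Ap3b1 (0.92) and Lrmda (0.91), and Apoe to Aldh9a1 (0.85) and to Abca1 itself (0.84). Bin1 ran closest to Kcnk13 (0.86) and Rffl (0.85). Between Apoe and Clu r was 0.06, and between Trem2 and Tyrobp 0.91.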

How the data were processed

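The authors deposited 1 gene-by-barcode matrix of untransformed UMI counts for each of 2 mice, from single-cell suspensions made by papain, protease and dispase digestion, per the labels' protocols. The submitters' processing notes name Cell Ranger 7.1.0, Seurat 5 and mm10 with no role, and neither intron and strand settings nor the annotation version are recorded in the labels. The members and lists were chosen with earlier results of these data known.

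Barcodes were kept from 500 detected genes and 1000 UMIs upward if mitochondrial genes took no more than 15% of their UMIs, and doublets marked by Scrublet (181 and 262 barcodes) were removed. Cells were clustered with scanpy 1.11.5 (2000 variable genes without the 10 genes and the listed genes, 30 components, 15 neighbours, Leiden resolution 1) and named from 21 marker lists. Of the kept cells, 7.42% and 3.08% stayed unnamed. CPM are summed counts of a class per 1000000 UMIs of that class; intervals, exact at 95%, cover counting error only. Fewer cells and less RNA per cell cannot be told apart in shares of UMIs.

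Counts were summed per mouse and class for the 13 classes represented by 20 or more cells in both animals. They were fitted with edgeR 4.0.16 (R 4.3.3) by its robust quasi-likelihood test, with TMM scaling, its expression filter and mouse as a block, since every class comes from the same 2 animals. A call required a Benjamini-Hochberg adjusted p under 0.05 over all genes tested and a change of 2-fold or more. Each SE of a log2 fold change was derived from its test, as the absolute change divided by the square root of F. P-values rest on 2 mice, and they are too small to some degree because the same cells were clustered and tested. The planned comparison of chemokine clusters could not be fitted, so microglia-like cells entered as 1 class and cells ranked by Ccl3 plus Ccl4 were compared (the planned per-cell split). Named list genes are up to 3 called genes per list with the largest change, 1 sign across both mice and 50 CPM or more on the higher side; of 196 listed genes 194 were matched. Genes named for Apoe-rich microglia-like cells fall outside that rule. The fit was also run on counts simulated from its own fitted values. Such counts cannot show the effect of testing the same cells that were clustered, and no result is drawn from them. DESeq2 1.42.0, other scalings and filters, and each mouse alone were tried as alternatives.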

Additional observations from a re-analysis of the deposited data

Results flagged for a closer look

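An unnamed cluster of 108 and 11 cells, led by C1qb, C1qa and C1qc, was kept out of the classes because its median depth was 0.0963 of that of its sample, and its levels lie outside the comparisons. In mouse 1 it had 1366 CPM of Apoe, 16.5 of Clu, 128 of Abca1, 1588 of Trem2 and 3214 of Tyrobp. The same cells had 69.9 CPM of Plcg2, 189 of Inpp5d, 267 of Spi1, 152 of Cd33 and 720.1 of Bin1. In mouse 2 it had 834 CPM of Apoe, 1748 of Trem2, 2582 of Tyrobp, 159 of Spi1, 159 of Cd33 and 357 of Bin1. These values rest on 11 shallow cells, in which Clu, Abca1, Plcg2 and Inpp5d had 3 or fewer UMIs each. After microglia markers (score 2.11), oligodendrocyte markers scored highest among unrelated classes in this cluster (0.654), and their part in the levels was not tested. Apoe and Tyrobp were thus higher, and Inpp5d in mouse 1 lower, than in the microglia-like class (357 and 175 CPM of Apoe, 1632 and 1336 of Tyrobp, 1534 of Inpp5d in mouse 1), and these differences were not tested.

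Too few cells left ependymal-like and B cell-like cells out of the tests. Clu had 2924 and 3195 CPM in ependymal-like cells, and Plcg2 226 and 202 CPM in B cell-like cells.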

How the results depend on the processing

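Of 560 log2 fold changes recomputed for 70 pairs of gene and comparison, 515 kept their direction and their side of the threshold, 13 lost a call, 9 gained one and 23 changed sign. All 36 called pairs had the same sign in each mouse. With 2 mice, leaving a mouse out gives the value of the other mouse alone, so it is not a separate check. These values of called pairs spanned -11.30 to 9.88 and moved by up to 2.02, and 0 reversed. The 2 mice are the replicates of every class, so the numbers pair the sums.

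Without the replicate block, 2 genes in place of 4 were called higher in microglia-like than in border macrophage-like cells, and uncalled values changed sign for Tyrobp (0.13) and Cd33 (0.18) in astrocyte-like cells against the other non-macrophage classes and for Apoe in oligodendrocyte-like cells against precursors (0.024). It changed no other call. With doublets kept, Clu was no longer called lower in microglia-like cells than in the non-macrophage classes (0 genes called lower). Inpp5d was also called lower in astrocyte-like cells than in the other non-macrophage classes with doublets kept, with DESeq2 and at a mitochondrial limit of 5% (2 genes called lower each). Under size factors and DESeq2, 2 genes were called lower in oligodendrocyte-like cells than in precursors. In mural-like against endothelial-like cells, 1 gene was called higher under size factors, with DESeq2, with doublets kept and without the S100a8 and S100a9 cluster, while 3 were called lower with doublets kept and 4 without that cluster. Apoe was not called there at a mitochondrial limit of 5% (-1.11) or with doublets kept (-0.93).

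The other sign changes were in uncalled values. Trem2 turned to -0.14 under size factors and -0.26 with DESeq2 in oligodendrocyte-like cells against precursors. In mural-like against endothelial-like cells it turned to 0.015 under size factors, 0.016 with DESeq2, 0.0069 with doublets kept, 0.10 at Leiden resolution 2 and 0.48 without the S100a8 and S100a9 cluster, where Tyrobp turned to 0.21. In microglia-like against border macrophage-like cells Tyrobp turned to 0.13 with no gene filter, 0.082 at the 5% limit and 0.00097 at resolution 2, and Clu to 0.10 at the 5% limit and 0.94 with doublets kept. Apoe in microglia-like cells against the non-macrophage classes turned to 0.077 at the 5% limit, 0.39 with doublets kept and 0.13 at resolution 2. Apoe turned to 0.039 with no gene filter in oligodendrocyte-like cells against precursors, and Tyrobp to 0.028 at resolution 2 in astrocyte-like cells against the other non-macrophage classes. Between chemokine-rich and chemokine-poor microglia-like cells, Clu turned to -1.12 and Plcg2 to 0.16 with doublets kept, and Abca1 to -0.0045 at 3000 UMIs or more and -0.00048 at resolution 2. The cause of these changes was not tested. Without the Apoe-rich cells, microglia-like Apoe was 136 and 91.1 CPM. The mean over cells in place of the summed level kept 274 of the CPM values within 1 SD and moved 46. Few UMIs in mural-like cells limit Plcg2, Spi1 and Cd33 there.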
